A study of Mus musculus with 8 samples.

Results

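Small leucine-rich proteoglycans (SLRPs) are secreted matrix proteins built from a curved array of leucine-rich repeats. The 10 SLRP genes described here were *Dcn*, *Bgn*, *Lum*, *Fmod*, *Omd*, *Ogn*, *Prelp*, *Aspn*, *Podn* and *Kera*. They were found by symbol among the 24346 genes of the deposited expression table. The rule that names them uses no measured value, though earlier results of these data were known when they were chosen.

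RNA was sequenced from bone marrow MSCs, plastic-adherent stromal cells able to give rise to osteoblasts, adipocytes and chondrocytes. The 8 libraries fall into 4 groups of 2: WT and *Dnmt3l* KO MSCs, each either undifferentiated or differentiating. *Dnmt3l* encodes a cofactor of the de novo DNA methyltransferases, and the comparison asks how MSCs from mice without it differ before and during osteogenic induction. KO mice were homozygous for the constitutive tmEnls allele, WT mice were their *Dnmt3l*+/+ littermates, and all were adult females on a C57BL/6 background. Marrow cells of several mice were mixed by genotype, grown on plastic, depleted of CD11b+ and CD45+ cells, and used at passage 4. Undifferentiated cells were kept in medium with 20% FBS, and differentiating cells had spent 3 days in medium with 10% FBS, 0.1 µM dexamethasone, 10 mM β-glycerophosphate and 50 µM ascorbic acid 2-phosphate. Induction therefore covers the change of serum, the glucocorticoid and the other additives together. The sources do not say whether both libraries of a group came from separate cell mixes, so p-values measure the spread between these libraries, which may be technical.

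The core proteins of SLRPs bind collagen fibrils and set their diameter and spacing. Many also carry chondroitin, dermatan or keratan sulfate chains, and decorin and biglycan bind TGF-β and other growth factors. In bone, biglycan, osteoglycin and osteoadherin (encoded by *Omd*) are made by cells of the osteoblast lineage, and asporin binds calcium and collagen. *Dcn*, *Bgn* and *Aspn* make up class I of the family, *Fmod*, *Lum*, *Prelp*, *Omd* and *Kera* class II, and *Ogn* belongs to class III. *Podn* encodes podocan, of a further, non-canonical class.

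The values are RPKM, which scale the reads on a gene by its transcript length and by the size of the library, so levels can be compared between genes. *Dnmt3l* is listed at 0 in all 4 KO libraries and at 0.830 to 1.56 RPKM in the WT libraries. The study reported no WT reads on the first exons of *Dnmt3l*, and could not detect its canonical protein in MSCs. An exact 0 can be a failed estimate in this table, because *Col1a2* is listed at 0 in all 4 WT libraries. Depth was estimated at 47.95 to 67.1 M scaled reads per library. All 11 stromal markers, *Thy1* and *Pdgfra* among them, were above 0 in every group. Of the 10 leukocyte markers *Ptprc* (CD45) was at most 0.127 RPKM and *Itgam* (CD11b) at most 0.356 RPKM; both were targets of the depletion. Others were higher, with *Lyz2* at 3.19 to 26.4 RPKM, *Cd14* at 1.23 to 4.90, *Cd68* at 1.18 to 2.79 and *Fcer1g* at 0.437 to 2.46 RPKM, so RNA of myeloid genes was detected.

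Each difference below is on the log2(RPKM + 0.1) scale, with its standard error (SE), from a limma fit of all 8 libraries to 15342 genes whose mean reached 0.1 RPKM. Adjusted p-values are Benjamini-Hochberg values over all these genes. A gene is said to have risen or fallen when its adjusted p was under 0.05. It is called a DEG when its log2 difference also exceeded 1 in size, a 2-fold change on this scale. Folds printed below are ratios of group mean RPKM, so they can differ slightly from the log2 difference. All members except *Kera* were tested.

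Most of the genes lie in clusters (mm10). *Dcn* (chr10:97479609-97518143), *Lum* (chr10:97565128-97572703) and *Kera* (chr10:97606879-97613692) follow each other on the plus strand, with *Epyc*, another SLRP gene, 30.4 kb beyond *Kera*. *Aspn* (chr13:49544443-49567565), *Omd* (chr13:49582462-49592822) and *Ogn* (chr13:49608046-49624501) follow *Ecm2*, which encodes a related matrix protein (chr13:49504810-49532789), also on the plus strand. These 4 genes lie within the span of *Cenpp*, on the opposite strand, and reads were assigned by strand. *Prelp* (chr1:133910304-133921414, minus strand) is 115.8 kb from *Fmod* (chr1:134037254-134048277, plus strand). *Bgn* (chrX:73483602-73495933, plus strand) stands alone. *Podn* (chr4:108014791-108096445, minus strand) overlaps *Scp2* on its own strand in GENCODE, whereas its RefSeq span ends at 108031954, so its reads could be split with that gene. The *Dnmt3l* locus is on chromosome 10 too, 19.4 Mb from *Dcn*.

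Promoter sequences were at hand for 8 of the 10 members (RefSeq, GRCm38.p6), but not for *Dcn* and *Lum*. The 250 bases before the start of the 4 genes of the chromosome 13 cluster are shown because the genotype difference of all of them changed in the same direction on induction, and those of *Bgn* as the member whose level differed least. Capitals mark CG dinucleotides, the bases that DNA methyltransferases act on. All 5 are on the plus strand, at chr13:49504560-49504809 (*Ecm2*), chr13:49544193-49544442 (*Aspn*), chr13:49582212-49582461 (*Omd*), chr13:49607765-49608014 (*Ogn*) and chrX:73483351-73483600 (*Bgn*).
Ecm2: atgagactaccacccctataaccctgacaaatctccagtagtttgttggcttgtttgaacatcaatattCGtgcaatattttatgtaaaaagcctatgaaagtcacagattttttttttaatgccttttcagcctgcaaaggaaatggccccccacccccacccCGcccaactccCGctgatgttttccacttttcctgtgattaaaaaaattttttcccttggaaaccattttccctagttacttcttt
Aspn: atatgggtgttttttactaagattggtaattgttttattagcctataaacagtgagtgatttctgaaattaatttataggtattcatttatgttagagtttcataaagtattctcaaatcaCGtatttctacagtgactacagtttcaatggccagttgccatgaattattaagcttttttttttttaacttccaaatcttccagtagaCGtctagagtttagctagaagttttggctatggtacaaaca
Omd: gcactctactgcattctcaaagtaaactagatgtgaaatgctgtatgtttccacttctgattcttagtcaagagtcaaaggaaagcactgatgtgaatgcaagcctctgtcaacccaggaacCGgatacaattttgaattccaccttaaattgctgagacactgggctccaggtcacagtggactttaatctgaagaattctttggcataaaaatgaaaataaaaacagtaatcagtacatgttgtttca
Ogn: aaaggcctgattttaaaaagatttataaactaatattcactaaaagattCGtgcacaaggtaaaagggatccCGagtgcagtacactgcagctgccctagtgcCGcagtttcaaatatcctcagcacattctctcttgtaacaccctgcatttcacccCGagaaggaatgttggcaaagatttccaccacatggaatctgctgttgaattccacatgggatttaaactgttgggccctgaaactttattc
Bgn: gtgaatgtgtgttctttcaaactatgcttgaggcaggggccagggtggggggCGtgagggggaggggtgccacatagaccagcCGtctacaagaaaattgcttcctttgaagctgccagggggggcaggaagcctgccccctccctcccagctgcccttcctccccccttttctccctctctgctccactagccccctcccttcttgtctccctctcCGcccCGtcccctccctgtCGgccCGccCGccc

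These windows held 3 CG in *Ecm2*, 2 in *Aspn*, 1 in *Omd*, 4 in *Ogn* and 7 in *Bgn*. Over 32851 promoters of the same length the median was 6 CG, with quartiles of 2 and 16. Among the other members *Fmod* had 2 CG, *Prelp* 5 and *Kera* 1, and *Podn* had 32 and 7 before its 2 starts. The chromosome 13 genes thus had fewer CG than the median promoter, with only *Omd* of the 4 under the lower quartile, and the first start of *Podn* had more than the upper quartile. DNA methylation was not analysed here.

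Short motifs were searched on both strands of these windows, as a description of the letters only. The TATA box TATAAA, found in 12.4% of all promoters, was in *Aspn* (from 207 and 178 bases before the start) and in *Ogn* (229 and 227, overlapping matches on opposite strands). The glucocorticoid receptor half-site AGAACA (16.1% of promoters) was in *Bgn* at 241 bases, and the RUNX site TGTGGT (14.0%) in *Ogn* at 65 bases. The AP-1 site TGANTCA (6.75%) was in none of the 8 members with a sequence, and *Dcn* and *Lum* were not searched. The GC box GGGCGG (32.7%) was in *Bgn* at 34, 10 and 6 bases (the last 2 overlap), in *Podn* at 202 and 70, and in *Ecm2* at 87. *Omd*, *Fmod*, *Prelp* and *Kera* held none of these letters in their windows.

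By mean level *Bgn* ranked 168th among the 24346 genes, *Ogn* 354th, *Fmod* 908th, *Aspn* 969th, *Dcn* 1068th and *Prelp* 1278th. *Omd*, *Lum*, *Podn* and *Kera* ranked 2666th, 7449th, 11662nd and 16691st. The members thus ran from a highly expressed matrix gene to one near the limit of detection.

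Induction raised most of these genes in both genotypes. In WT MSCs 6 of the 9 tested members rose and 1 fell (31.6% and 32.8% of all tested genes rose and fell). Of these 4 were DEGs, all higher (9.69% of all genes were called higher and 4.63% lower). In *Dnmt3l* KO MSCs 7 rose and 1 fell (36.4% and 36.6% of all genes), and the 7 that rose were DEGs (13.0% of all genes called higher, 9.87% lower). The median difference over the members was 0.68 in WT and 1.41 in KO MSCs, against 0 over all tested genes in both. In bulk RNA fewer cells of a kind and less RNA per cell cannot be told apart, here and in every later comparison.

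The genotypes differed in a less uniform way. In undifferentiated MSCs 3 members were higher and 4 lower in KO (14.7% and 17.5% of all genes), with 1 DEG in each direction (0.613% of all genes called higher, 1.09% lower). After induction 3 were higher and 3 lower in KO (17.8% and 22.9% of all genes), with 2 DEGs, both higher (1.36% of all genes called higher, 1.95% lower). A pass of the test alone was thus common, and a DEG was not. The comparisons share libraries with each other, so their values are set side by side.

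**Figure D1:**
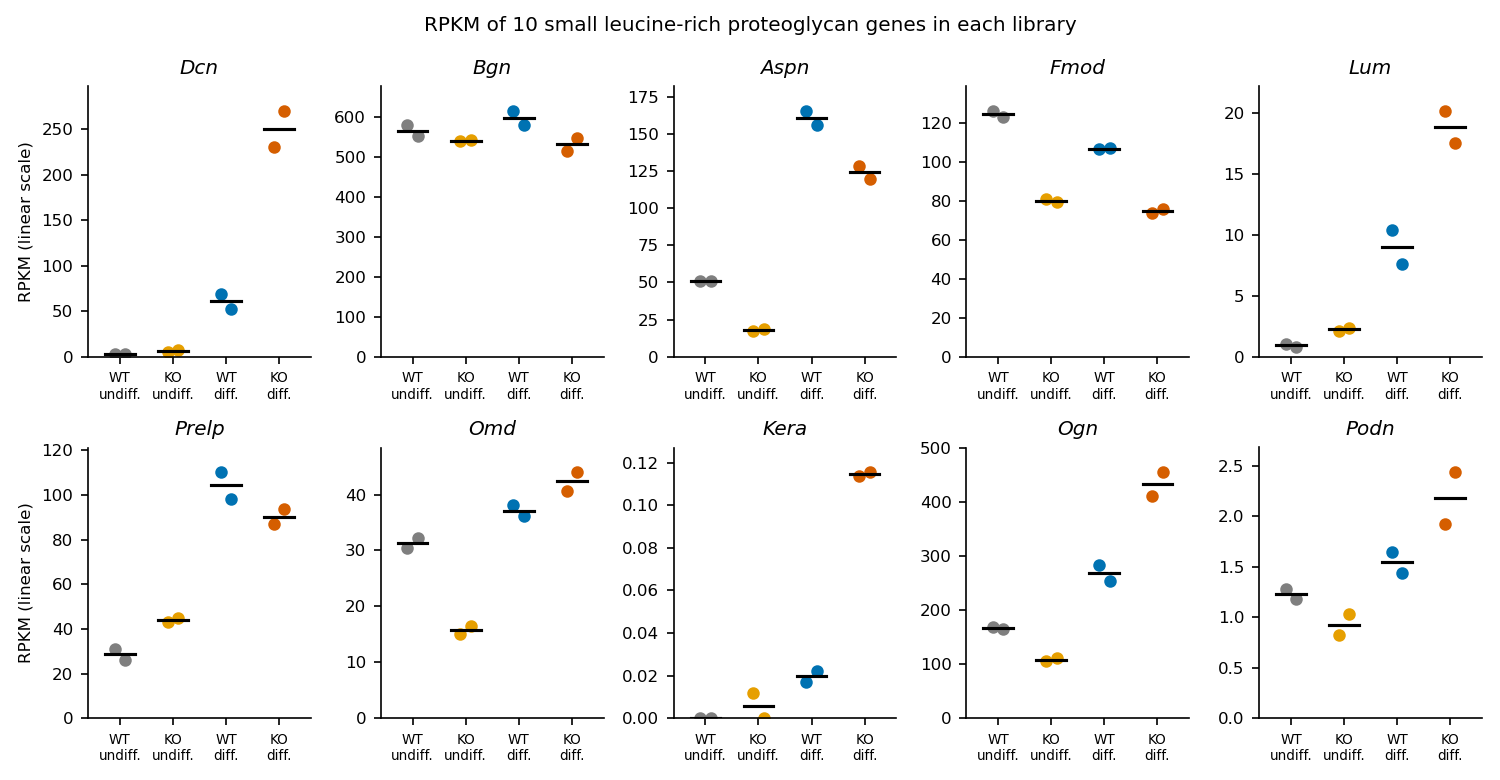
RPKM of the 10 genes in each of the 8 libraries, on linear axes that start at 0 and differ between panels; points are libraries and bars are the means of 2. *Dcn* reached 230.4 and 270.1 RPKM in differentiating KO MSCs against 68.6 and 53.0 in differentiating WT MSCs, whereas *Bgn* stayed between 516.3 and 616.7 in all libraries.

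Among the class I genes, *Dcn* encodes decorin, which binds collagen fibrils and sequesters TGF-β. It had 3.20 and 3.14 RPKM in undifferentiated WT and 5.63 and 7.16 RPKM in undifferentiated KO MSCs. After induction it had 68.6 and 53.0 RPKM in WT and 230.4 and 270.1 RPKM in KO MSCs. The 4 groups did not overlap, and each KO group was above the WT group of its state. *Dcn* rose 19.2-fold in WT (log2 4.21, SE 0.16, adjusted p = 6.2e-06) and 39.1-fold in KO MSCs (log2 5.27, SE 0.16, adjusted p = 1.6e-06), the largest rise of any member in both. It was 2.02-fold higher by mean RPKM in KO than in WT MSCs before induction (log2 0.98, SE 0.16, adjusted p = 0.0077). Its log2 difference was just under the DEG limit of 1. After induction *Dcn* was 4.12-fold higher in KO (log2 2.05, SE 0.16, adjusted p = 9.0e-04). The genotype difference was larger after induction, by 1.07 (SE 0.23, adjusted p = 0.014 for the interaction). Without replicate 2 of undifferentiated WT MSCs the first genotype difference was 0.97 with an adjusted p of 0.052, and without replicate 1 of that group the interaction was 1.05 with an adjusted p of 0.053.

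*Bgn* encodes biglycan, the closest relative of decorin and an abundant proteoglycan of bone matrix. It had 580.1 and 553.0 RPKM in undifferentiated WT, 539.5 and 542.6 in undifferentiated KO, 616.7 and 581.9 in differentiating WT, and 516.3 and 548.3 RPKM in differentiating KO MSCs. It was the most abundant member in every library, and its differences were the smallest of the tested members in all 5 comparisons. The difference on induction was 0.08 (95% interval -0.05 to 0.21) in WT and -0.02 (-0.16 to 0.11) in KO MSCs, and neither passed. The sign was the opposite with median centring in WT (-0.02) and, in KO, with quantile normalization (0.09) or without replicate 1 of differentiating KO MSCs (0.02). Before induction the genotypes differed by -0.07 (95% interval -0.20 to 0.06, adjusted p = 0.38). After it *Bgn* was 1.13-fold lower in KO (log2 -0.17, SE 0.05, adjusted p = 0.046), a call that was lost in 7 of the 8 fits that left out a library, with adjusted p-values of 0.067 to 0.20.

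*Aspn* encodes asporin, which binds collagen and calcium and inhibits TGF-β signalling. The 2 undifferentiated WT libraries had 50.8 and 50.7 RPKM, and the 2 undifferentiated KO libraries 17.1 and 18.7 RPKM. After induction WT MSCs had 165.6 and 156.2 RPKM and KO MSCs 128.5 and 119.9 RPKM. KO was below WT in both states, and the groups did not overlap. Before induction *Aspn* was 2.84-fold lower in KO MSCs (log2 -1.50, SE 0.06, adjusted p = 1.2e-04) and the only member called a DEG in that direction. After induction it was 1.29-fold lower (log2 -0.37, SE 0.06, adjusted p = 0.0046). *Aspn* rose 3.17-fold in WT (log2 1.66) and 6.94-fold in KO MSCs (log2 2.79), and the interaction was 1.13 (SE 0.08, adjusted p = 6.7e-04).

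Of the class II genes, *Fmod* encodes fibromodulin, which carries keratan sulfate and binds collagen fibrils. It had 126.1 and 122.9 RPKM in undifferentiated WT and 106.6 and 106.7 RPKM in differentiating WT MSCs. In KO MSCs it had 80.6 and 79.4 RPKM before induction and 73.4 and 76.0 RPKM after it. It was the only member that was lower after induction in both genotypes and lower in KO in both states, with no overlap between the 4 groups. The genotype difference was -0.64 (SE 0.03, adjusted p = 2.3e-04) before and -0.51 (SE 0.03, adjusted p = 6.0e-04) after induction. *Fmod* fell by 0.22 in WT (adjusted p = 0.0011) and by 0.10 in KO MSCs (adjusted p = 0.027). The latter turned to 0.05 with quantile normalization and missed the threshold without replicate 1 or 2 of undifferentiated KO MSCs (adjusted p = 0.12 and 0.066) or replicate 1 of differentiating KO MSCs (0.059). The interaction was 0.12 (95% interval 0.02 to 0.23, adjusted p = 0.066), and passed without replicate 1 of differentiating KO MSCs (0.15, adjusted p = 0.027).

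*Lum* encodes lumican, a keratan sulfate proteoglycan that limits fibril diameter. It had 1.03 and 0.833 RPKM in undifferentiated WT and 2.15 and 2.34 RPKM in undifferentiated KO MSCs. After induction it had 10.4 and 7.62 RPKM in WT and 20.2 and 17.6 RPKM in KO MSCs, in the same order of groups as *Dcn*. *Lum* was higher in KO MSCs before induction (2.40-fold, log2 1.19, SE 0.17, adjusted p = 0.0048) and after it (2.10-fold, log2 1.07, SE 0.17, adjusted p = 0.0051), and was a DEG in both. After induction it came under the fold limit without replicate 2 of differentiating WT (log2 0.86) or replicate 1 of differentiating KO MSCs (0.97), which takes the count of DEGs among the members in that comparison from 2 to 1. *Lum* rose 9.64-fold in WT and 8.42-fold in KO MSCs (log2 3.13 and 3.02). Unlike for *Dcn*, the interaction did not pass (-0.11, 95% interval -0.70 to 0.47, adjusted p = 0.74), and its sign was positive with a pseudocount of 1 (0.26), with quantile normalization (0.01), and without replicate 2 of undifferentiated WT (0.03) or replicate 1 of differentiating WT MSCs (0.11).

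*Prelp* encodes PRELP, which anchors basement membranes to connective tissue and has a basic, heparin-binding N terminus. Undifferentiated WT MSCs had 31.0 and 26.3 RPKM and undifferentiated KO MSCs 43.2 and 44.7 RPKM. Differentiating WT MSCs had 110.3 and 98.4 RPKM and differentiating KO MSCs 87.0 and 93.6 RPKM. KO libraries were thus above WT before induction and below WT after it. The first difference passed (1.53-fold, log2 0.62, SE 0.09, adjusted p = 0.0055) and the second did not (log2 -0.21, 95% interval -0.43 to 0.02, adjusted p = 0.13). *Prelp* rose 3.64-fold in WT and 2.06-fold in KO MSCs (log2 1.86 and 1.04), and it was the only member with a negative interaction that passed (-0.83, SE 0.13, adjusted p = 0.0052).

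*Omd* encodes osteoadherin, a keratan sulfate proteoglycan of mineralized tissue that binds hydroxyapatite and osteoblast integrins. It had 30.5 and 32.2 RPKM in undifferentiated WT but 15.1 and 16.5 RPKM in undifferentiated KO MSCs. After induction it had 38.1 and 36.1 RPKM in WT and 40.7 and 44.0 RPKM in KO MSCs. The KO libraries were the lowest before induction and the highest after it. Before induction *Omd* was 1.98-fold lower in KO MSCs (log2 -0.98, SE 0.06, adjusted p = 4.6e-04). After it the difference was 0.19 (95% interval 0.04 to 0.34, adjusted p = 0.054, and 0.048 without replicate 1 of differentiating KO MSCs). *Omd* rose 2.68-fold in KO MSCs (log2 1.41, adjusted p = 5.5e-06) and 1.19-fold in WT MSCs (log2 0.24, adjusted p = 0.014). The rise in WT did not pass without replicate 1 of undifferentiated WT (adjusted p = 0.080) or of differentiating WT MSCs (0.083), nor with median centring (0.099). The interaction was 1.17 (SE 0.09, adjusted p = 7.5e-04).

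*Kera* encodes keratocan, a keratan sulfate proteoglycan known best from the cornea. It is listed at 0 in both undifferentiated WT libraries, at 0.0119 and 0 RPKM in undifferentiated KO, at 0.0170 and 0.0222 in differentiating WT, and at 0.114 and 0.115 RPKM in differentiating KO MSCs. At the estimated depth 3 reads on its transcript would give 0.0215 to 0.0301 RPKM, so the first 3 groups were at or below what could be detected. The differentiating KO libraries had an estimated 11.8 and 11.9 reads on this gene. Its mean of 0.0350 RPKM was below the minimum for testing, and no fold is given.

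*Ogn*, of class III, encodes osteoglycin (mimecan), a secreted product of bone and muscle cells. It was the most abundant member after *Bgn* in every library. Undifferentiated WT MSCs had 168.5 and 165.6 RPKM and undifferentiated KO MSCs 105.4 and 112.4 RPKM. After induction WT MSCs had 283.6 and 253.5 RPKM and KO MSCs 411.5 and 456.1 RPKM. The groups did not overlap, and KO went from the lowest to the highest. *Ogn* was 1.53-fold lower in KO before induction (log2 -0.62, SE 0.07, adjusted p = 0.0029) and 1.61-fold higher after it (log2 0.69, SE 0.07, adjusted p = 0.0017), so that both opposite differences passed. It rose 1.61-fold in WT and 3.98-fold in KO MSCs (log2 0.68 and 1.99). The interaction of 1.31 (SE 0.11, adjusted p = 8.8e-04) was the largest of the members.

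*Podn* encodes podocan, a collagen-binding SLRP known from smooth muscle. It had 1.28 and 1.18 RPKM in undifferentiated WT, 0.823 and 1.03 in undifferentiated KO, 1.65 and 1.44 in differentiating WT, and 1.92 and 2.44 RPKM in differentiating KO MSCs, an estimated 117 to 358 reads per library. The order of the groups was that of *Omd* and *Ogn*. *Podn* rose 2.35-fold in KO MSCs (log2 1.15, SE 0.15, adjusted p = 6.5e-04), while the difference in WT was 0.30 (95% interval -0.07 to 0.67, adjusted p = 0.13). The genotype difference was -0.38 before induction (95% interval -0.76 to -0.01, adjusted p = 0.11) and 0.46 after it (0.09 to 0.84, adjusted p = 0.054, and 0.036 without replicate 1 of differentiating KO MSCs). The interaction passed (0.85, SE 0.21, adjusted p = 0.025), but not without replicate 1 or 2 of undifferentiated WT, replicate 2 of differentiating WT, replicate 1 of undifferentiated KO or replicate 2 of differentiating KO MSCs (adjusted p = 0.061 to 0.088).

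**Figure D2:**
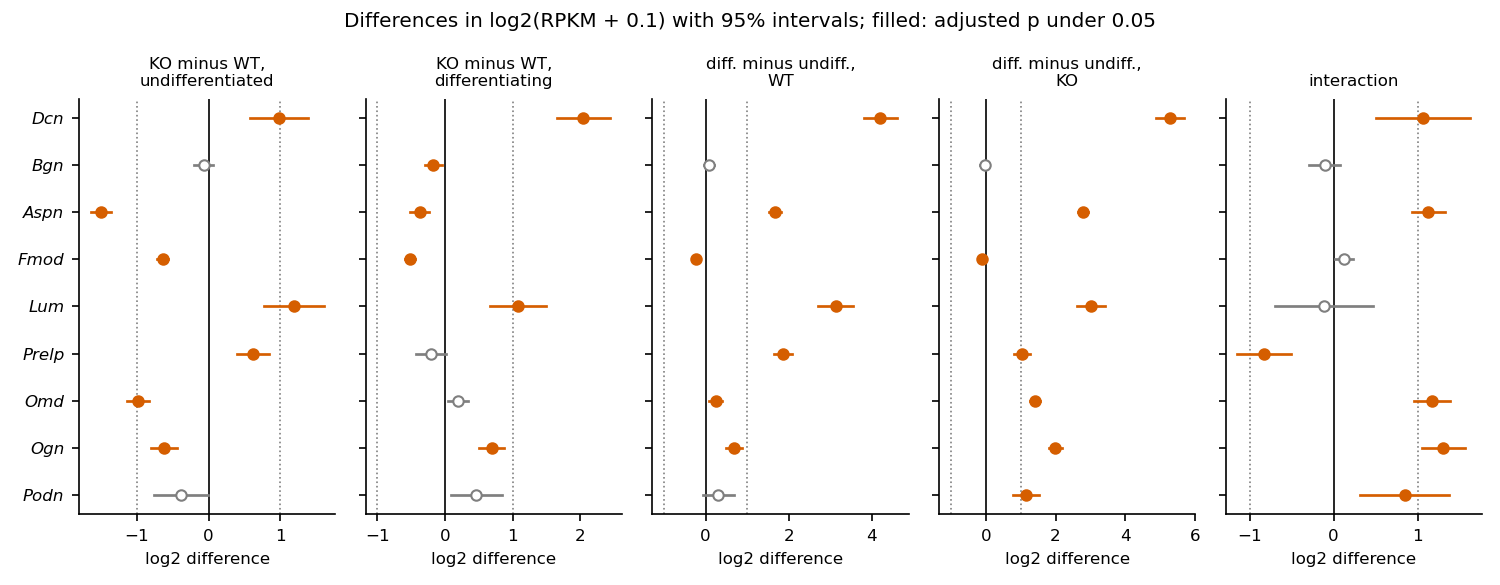
Difference in log2(RPKM + 0.1) of the 9 tested genes in the 5 comparisons, as points with 95% intervals; filled points had an adjusted p under 0.05 and dotted lines mark a 2-fold change. The interaction was positive and passed for *Dcn*, *Aspn*, *Omd*, *Ogn* and *Podn*, and negative for *Prelp*.

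Over the members, the genotype difference changed with induction in 6 of the 9 tested. Of these 5 had a positive interaction and 1 a negative one (19.4% and 20.0% of all tested genes passed in these directions). The interaction exceeded 2-fold in 4 of the 5 (2.76% of all genes were called with a positive and 3.42% with a negative interaction). The median interaction was 0.85 over the members against -0.01 over all tested genes. *Dcn* and *Lum* were higher in KO MSCs in both states, and *Fmod* and *Aspn* lower in both. *Ogn* was lower before and higher after induction.

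By library values the 2 groups of a comparison rarely overlapped. Between the genotypes 3 of the 10 members were above and 6 below WT in both undifferentiated KO libraries, with *Kera* overlapping, and 6 were above and 4 below after induction. Of all tested genes 34.8% lay above and 36.9% below in undifferentiated, and 33.8% and 37.1% in differentiating MSCs, so separation of 2 libraries from 2 was common. On induction 9 members were above and 1 below in WT, and 8 above and 1 below in KO MSCs with *Bgn* overlapping, where 41.5% and 41.9% of all tested genes did so in WT and 42.5% and 42.8% in KO MSCs. *Kera* is counted among those above in differentiating KO MSCs and on induction in both genotypes. It had an estimated 11.9 reads or fewer in each library, and the shares leave it out because it was not tested.

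Neighbouring genes were then set side by side. On chromosome 10 *Dcn* and *Lum*, 47.0 kb apart, were both higher in KO MSCs in both states. On chromosome 13 all 4 neighbours were lower in undifferentiated KO MSCs: *Ecm2* by -0.29 (adjusted p = 0.037), *Aspn* by -1.50, *Omd* by -0.98 and *Ogn* by -0.62. After induction *Ecm2* (0.38, adjusted p = 0.013) and *Ogn* (0.69) were higher in KO, *Omd* was at 0.19 and *Aspn* lower. All 4 had a positive interaction that passed: 0.67 for *Ecm2* (adjusted p = 0.0063), 1.13 for *Aspn*, 1.17 for *Omd* and 1.31 for *Ogn*. *Ecm2* had 1.38 and 1.35 RPKM in undifferentiated WT, 1.18 and 1.03 in undifferentiated KO, 3.69 and 3.43 in differentiating WT, and 4.74 and 4.56 RPKM in differentiating KO MSCs. *Cenpp*, the centromere protein gene on the other strand of this cluster, moved the other way after induction: it was 0.88 lower in differentiating KO MSCs (adjusted p = 0.0028), and its interaction was -1.06 (adjusted p = 0.0043). *Prelp* and *Fmod* on chromosome 1 differed in direction, as *Prelp* was higher and *Fmod* lower in undifferentiated KO MSCs. Whether neighbours move alike more than other genes do was not tested.

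**Figure D3:**
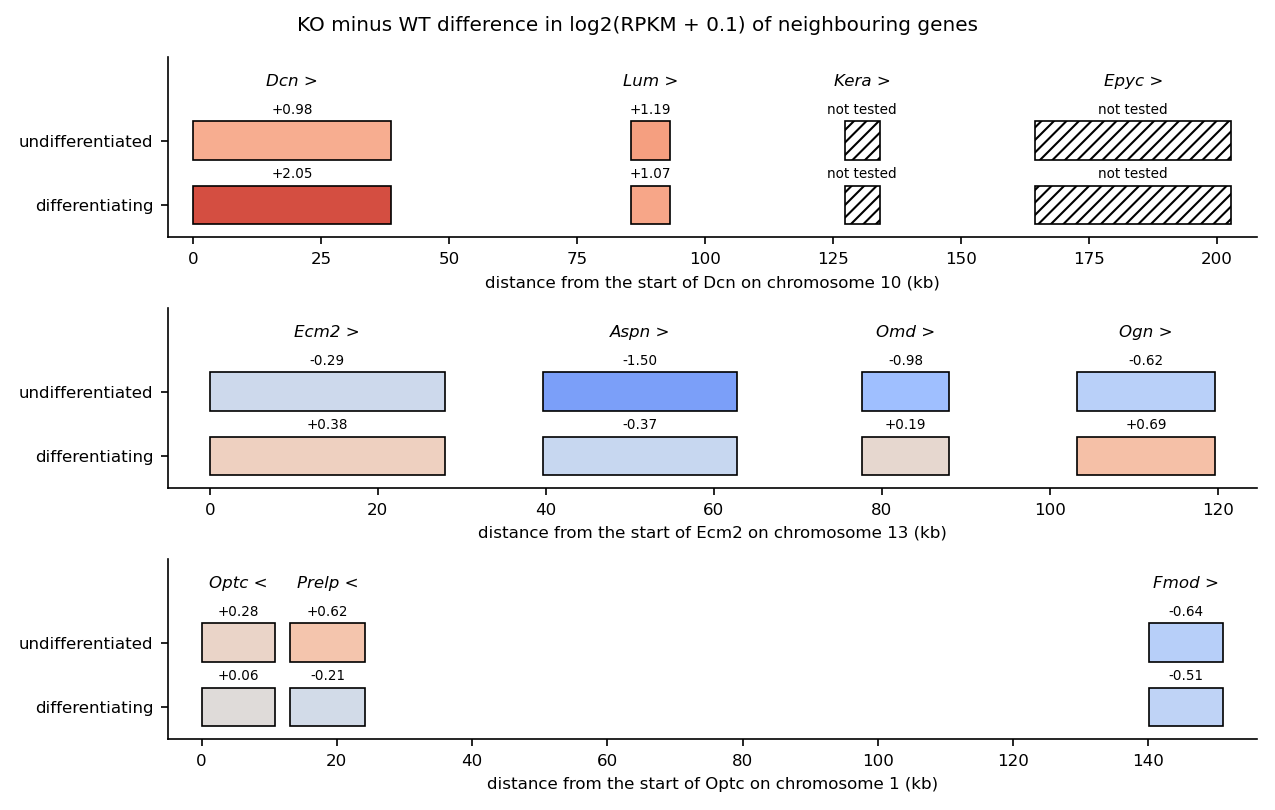
Gene spans of the 3 SLRP clusters as distance in kb, with the KO minus WT difference in log2(RPKM + 0.1) printed above and coloured in each box (red higher, blue lower in KO; hatched, not tested; arrowheads give the strand). The chromosome 13 genes went from -0.29, -1.50, -0.98 and -0.62 before induction to 0.38, -0.37, 0.19 and 0.69 after it.

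The sum of the 10 genes gives the makeup of SLRP transcripts. It was 974.1 ± 25.9 RPKM in undifferentiated WT, 817.2 ± 10.7 in undifferentiated KO, 1348 ± 75.4 in differentiating WT and 1569 ± 83.4 RPKM in differentiating KO MSCs (SD, n = 2). KO was thus below WT before induction, at a ratio of 0.839, and above it afterwards, at 1.16. The sum was 1.38 times as high after induction in WT and 1.92 times in KO MSCs (1.51 and 2.08 with quantile normalization, 1.29 and 1.81 with median centring). *Bgn* made up 57.9% to 58.5% of it in undifferentiated WT and 65.8% to 66.6% in undifferentiated KO MSCs, but 44.0% to 44.9% in differentiating WT and 33.7% to 34.2% in differentiating KO MSCs. *Dcn* went from 0.322% to 0.329% in undifferentiated WT to 15.3% to 16.6% in differentiating KO MSCs.

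The balance of the 2 class I chondroitin and dermatan sulfate proteoglycans changed accordingly. There were 181.4 and 175.9 RPKM of *Bgn* for each RPKM of *Dcn* in undifferentiated WT MSCs, and 95.8 and 75.8 in undifferentiated KO MSCs. After induction the ratio was 8.99 and 11.0 in WT and 2.24 and 2.03 in KO MSCs. The 4 groups did not overlap, and since *Bgn* varied little, the ratio follows *Dcn*. Without *Bgn* the summed level was 407.6 RPKM in undifferentiated WT, 276.1 in undifferentiated KO, 748.8 in differentiating WT and 1037 RPKM in differentiating KO MSCs, so the order of the groups was the same.

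**Figure D4:**
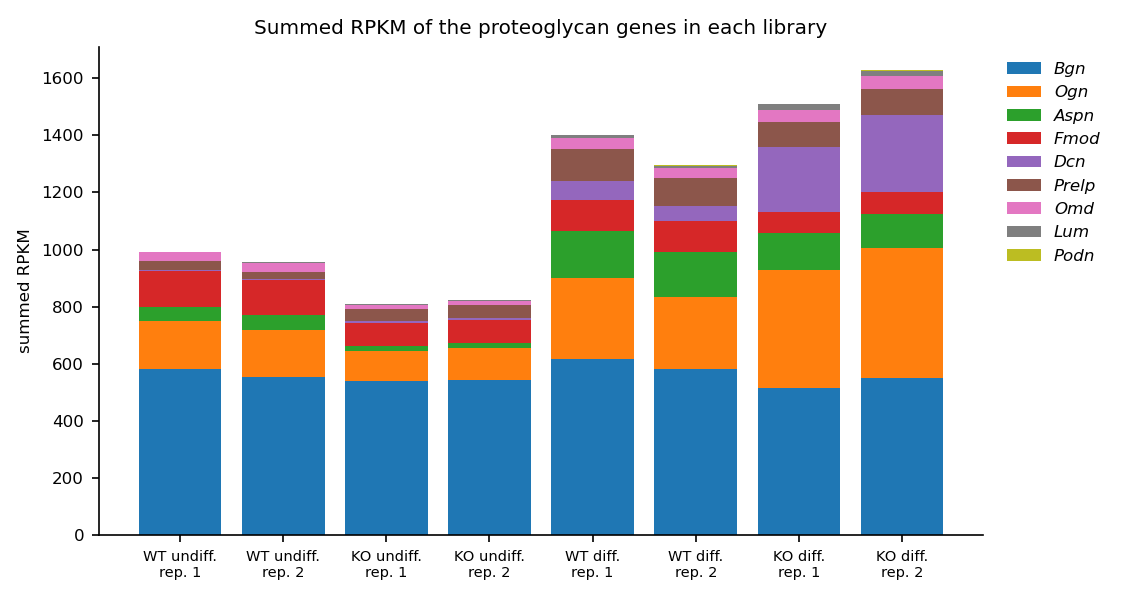
Summed RPKM of the SLRP genes in each library, stacked by gene, from 0. The *Bgn* part is nearly level across the 8 libraries, while *Dcn* and *Ogn* together fill a larger share of differentiating KO MSCs than of any other group.

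The sums of several marker lists moved with these groups, and a few highly expressed genes can dominate such a sum. The summed RPKM of 8 glucocorticoid response genes was 362.1 to 374.7 in the undifferentiated groups, 1165 to 1191 in differentiating WT and 1503 to 1547 in differentiating KO MSCs. The 7 adipocyte markers summed to 57.0 to 67.7 in undifferentiated and 420.0 to 468.2 RPKM in differentiating MSCs. The 10 osteoblast markers summed to 624.8 to 630.1 in undifferentiated WT and 530.0 to 540.9 in undifferentiated KO MSCs. After induction they summed to 1388 to 1494 in WT and 708.5 to 829.5 RPKM in KO MSCs. *Ibsp* and *Spp1* made up most of these later sums, with means of 694.9 and 697.6 in WT and 349.6 and 391.6 RPKM in KO MSCs. Of the 10 osteoblast markers, 3 rose and 2 fell on induction in WT MSCs (31.6% and 32.8% of all genes). In KO MSCs 2 rose and 5 fell (36.4% and 36.6%), with a median difference of -0.23. The 8 chondrocyte and tendon markers summed to 196.8 to 205.7 in undifferentiated MSCs, 341.1 to 359.3 in differentiating WT and 506.3 to 586.8 RPKM in differentiating KO MSCs. *Comp* made up most of the sums after induction, with means of 281.5 in WT and 513.9 RPKM in KO MSCs. Of the 7 markers tested, 2 were higher and 3 lower in differentiating KO MSCs (17.8% and 22.9% of all genes), with a median difference of -0.12.

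The 10 proliferation genes stood at 241.3 to 242.7 RPKM in undifferentiated WT and 317.2 to 321.2 in undifferentiated KO MSCs, and at 139.0 to 150.1 and 69.2 to 88.1 RPKM after induction. All 10 were lower in differentiating KO than in differentiating WT MSCs at an adjusted p under 0.05 (22.9% of all tested genes were). The 10 leukocyte markers summed to 20.5 to 21.6 in undifferentiated WT, 10.0 to 11.0 in undifferentiated KO, 33.0 to 37.8 in differentiating WT and 14.1 to 15.2 RPKM in differentiating KO MSCs. *Lyz2* alone had means of 13.1, 3.31, 24.7 and 7.24 RPKM in these groups. Of the 9 tested, 2 were higher and 5 lower in undifferentiated KO MSCs (14.7% and 17.5% of all genes). In differentiating KO MSCs 1 was higher and 8 were lower (17.8% and 22.9%). *Cd14* was higher in KO in both states (0.78 and 0.46). The 6 endothelial markers were at most 4.65 RPKM in sum, with *Cldn5* at 0 in both differentiating groups. The 11 stromal markers summed to 1634 to 1665 in undifferentiated WT, 1796 to 1800 in undifferentiated KO, 3088 to 3163 in differentiating WT and 3904 to 3956 RPKM in differentiating KO MSCs. *Ly6a* alone had means of 474.3, 646.2, 1847 and 2563 RPKM in these groups. Of the 11 markers, 5 were higher and 3 lower in undifferentiated KO MSCs (14.7% and 17.5% of all genes). In differentiating KO MSCs 4 were higher and 5 lower (17.8% and 22.9%). On induction 7 rose and 4 fell in WT (31.6% and 32.8%), and 5 rose and 5 fell in KO MSCs (36.4% and 36.6%). The part of these lists in the SLRP differences was not tested.

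Of 8 other SLRP genes listed with the members, 7 were tested. Undifferentiated KO MSCs had 2 higher and 1 lower, and differentiating KO MSCs 1 higher and 2 lower (all genes: 14.7% and 17.5%, then 17.8% and 22.9%). *Tsku*, which encodes tsukushi, an inhibitor of BMP signalling, was 0.43 higher before and 0.30 lower after induction in KO MSCs (adjusted p = 0.0038 and 0.0091). It fell on induction by 0.65 in WT and by 1.38 in KO MSCs. *Podnl1*, the paralogue of *Podn*, fell by 1.41 in WT and by 1.74 in KO MSCs, unlike *Podn* itself. *Optc*, next to *Prelp*, fell by 0.90 and 1.12. *Nyx*, which encodes nyctalopin of the retina, rose by 3.14 and 3.20 from below 0.05 RPKM. *Chad* (chondroadherin of cartilage) was 1.12 higher in undifferentiated KO MSCs (adjusted p = 0.026) at 0.0403 to 0.264 RPKM, an estimated 3 to 19.3 reads. *Chadl*, a relative of *Chad*, passed in no comparison, at 0.608 to 0.728 RPKM. *Epyc*, the neighbour of *Kera*, was not tested, at 0 to 0.0256 RPKM in undifferentiated and 0.166 to 0.186 RPKM in differentiating MSCs.

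The enzymes that build the glycosaminoglycan chains of these proteins were read beside all tested genes, of which 14.7% were higher and 17.5% lower in undifferentiated KO MSCs, and 17.8% higher and 22.9% lower in differentiating KO MSCs. Of 25 chondroitin and dermatan sulfate genes, 3 were higher and 4 lower in undifferentiated KO MSCs and none was a DEG. *Ugdh*, which makes the UDP-glucuronate for the chains, was higher by 0.55, *Xylt1*, which starts them, by 0.46 and the sulfotransferase gene *Chst11* by 0.38, while the sulfotransferase gene *Ust* was lower (-0.48). In differentiating KO MSCs 1 was higher and 8 were lower. The former was *Chst15* (0.56), and *Chsy3*, which extends chains (-0.80), *Papss2*, which makes the sulfate donor (-0.60), and *Chst7* (-0.48) were among the latter. *Chst15* also rose on induction by 1.76 in WT and 2.50 in KO MSCs, and *Ust* by 1.12 and 1.67, whereas *Chsy3* fell by 1.47 and 1.96. In KO MSCs 8 of the 25 rose and 15 fell on induction (all genes: 36.4% and 36.6%), and in WT MSCs 8 rose and 10 fell (31.6% and 32.8%). Of 5 tested keratan sulfate genes, 1 was higher and 2 lower in undifferentiated KO MSCs and none passed after induction. The higher one was *Chst1*, a keratan sulfate sulfotransferase gene (0.80), which fell on induction by 1.24 in WT and 1.91 in KO MSCs.

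Among the collagens and elastic fibre genes that SLRPs bind, *Col1a2* is left out of the counts because it is listed at 0 in all WT libraries and at 1047 to 1472 RPKM in the KO libraries. Of the other 16 genes, 2 were higher and 8 lower in undifferentiated KO MSCs, and 3 were higher and 9 lower in differentiating KO MSCs (all genes: 14.7% and 17.5%, then 17.8% and 22.9%). *Col11a1* (-0.72), *Col11a2* (-0.68) and *Eln*, which encodes elastin (-0.67), were lower in undifferentiated KO MSCs and *Col14a1*, a fibril-associated collagen, was higher (0.71). In differentiating KO MSCs *Col2a1*, the collagen of cartilage (-2.34), *Col6a3* (-1.08) and *Col1a1*, the main collagen of bone (-0.82), were lower, and *Eln* was higher (1.14). *Col1a1* had been higher in undifferentiated KO MSCs (0.62, adjusted p = 0.015), and its interaction was -1.43 (adjusted p = 0.0025). *Eln* rose on induction by 3.41 in WT and 5.22 in KO MSCs, with an interaction of 1.81 (adjusted p = 0.0010). *Col14a1* rose by 3.24 in WT and 3.04 in KO MSCs.

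Of 16 tested ligands and receptors of SLRPs, 3 were higher and 6 lower in undifferentiated KO MSCs, and 5 were higher and 6 lower in differentiating KO MSCs (all genes: 14.7% and 17.5%, then 17.8% and 22.9%). The bone growth factor gene *Bmp4* (-1.53), *Wisp1*, whose CCN protein binds decorin and biglycan (-1.16), and *Tlr2*, an innate receptor for biglycan (-0.64), were lower before induction. *Tgfb1*, which encodes a ligand held by decorin, was 0.72 higher before and 0.85 lower after induction (interaction -1.57, adjusted p = 6.0e-04). *Ctgf* (-1.64), *Wisp1* (-1.03) and *Cd44* (-0.76) were also lower in differentiating KO MSCs. *Tgfb1* and *Dcn* thus had interactions of opposite sign, with *Tgfb1* at group means of 1.3 to 3.2 RPKM. The other TGF-β genes, *Tgfb3* and *Tgfb2*, had lower mean RPKM in KO than in WT MSCs in both states. *Tgfb3* had means of 165.2 in undifferentiated WT and 115.1 in undifferentiated KO, and 47.5 and 38.0 RPKM after induction. *Tgfb2* had 19.2 and 15.4, then 15.0 and 13.7 RPKM.

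Of 11 tested proteases that cleave SLRPs, 1 was higher and 7 lower in undifferentiated KO MSCs, and 4 were higher and 5 lower in differentiating KO MSCs (all genes: 14.7% and 17.5%, then 17.8% and 22.9%). The stromelysin gene *Mmp3* was higher in both (0.86 and 1.39). The collagenase gene *Mmp13*, known to cleave biglycan and fibromodulin, was lower in both (-1.12 and -0.38), although it rose on induction by 2.33 in WT and 3.06 in KO MSCs. *Adamts4* was lower before induction (-0.58), *Tll1*, a procollagen proteinase gene, was lower after it (-0.68), and *Htra1*, a serine protease gene, was higher after it (0.38). Before induction *Htra1* had had a mean of 100.3 in KO against 148.6 RPKM in WT MSCs, and its interaction was 0.95 (adjusted p = 4.9e-04). The interaction was 0.73 for *Mmp13* (adjusted p = 0.0086) and -0.52 for *Tll1* (adjusted p = 0.023). *Bmp1*, whose product cleaves the propeptide of biglycan, had an interaction of 0.47 (adjusted p = 0.0010).

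Of 11 other matrix proteoglycan genes tested, 3 were higher and 2 lower in undifferentiated KO MSCs, and 3 were higher and 3 lower in differentiating KO MSCs (all genes: 14.7% and 17.5%, then 17.8% and 22.9%). *Esm1*, which encodes the dermatan sulfate proteoglycan endocan, was higher in both states (1.37 and 1.24). *Hspg2*, which encodes perlecan of basement membranes, was higher before induction (1.20). *Cspg4*, which encodes the cell surface proteoglycan NG2, was 0.61 higher before and 0.99 lower after it. *Hapln1*, a link protein gene (-1.56), and *Bcan*, which encodes brevican (-1.48), were lower in differentiating KO MSCs.

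The lists are described by their medians, without a test. In undifferentiated and differentiating MSCs the median difference was 0.16 and 0.05 over the other SLRP genes, -0.03 and -0.12 over the chondroitin and dermatan sulfate genes, and -0.06 and -0.02 over the keratan sulfate genes. It was -0.27 and -0.38 over the collagens and elastic fibre genes, -0.14 and -0.27 over the ligands and receptors, -0.22 in both states over the proteases, and -0.14 and -0.07 over the other matrix proteoglycans. Over all tested genes it was 0 and -0.01.

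**Figure D5:**
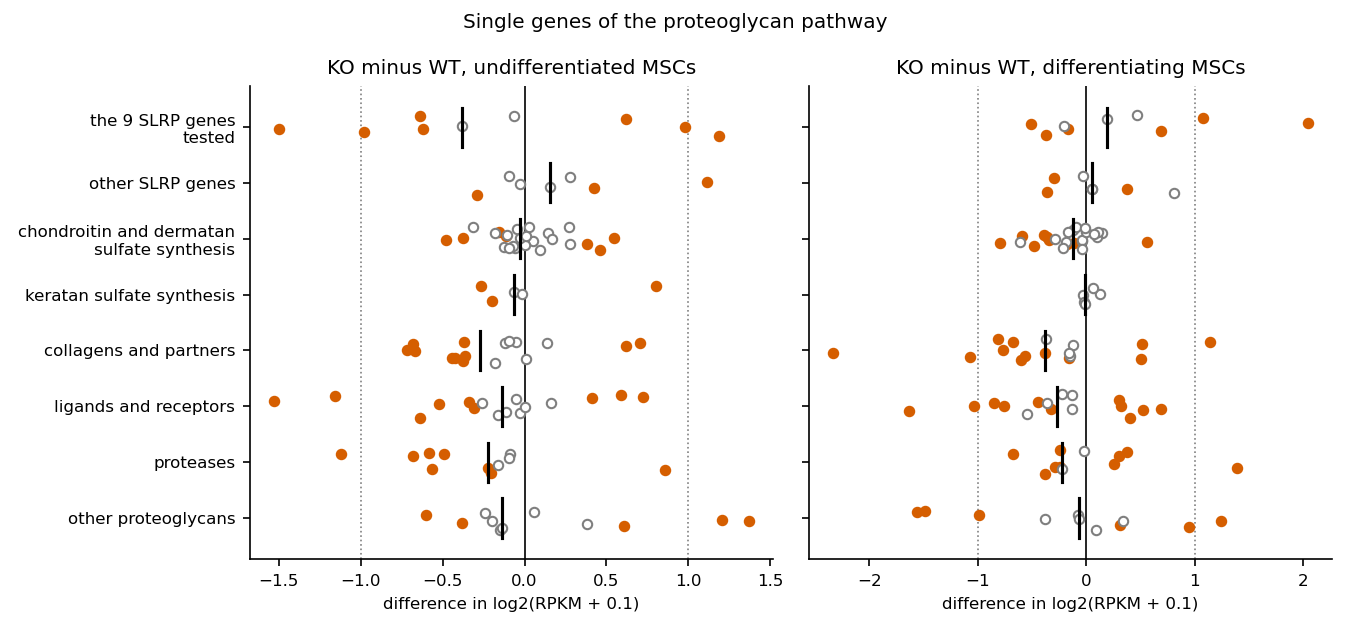
KO minus WT difference in log2(RPKM + 0.1) of single genes by list, in undifferentiated (left) and differentiating MSCs (right); filled points had an adjusted p under 0.05, black bars are list medians, dotted lines mark 2-fold, and *Col1a2* is left out. The SLRP genes spread from -1.50 to 1.19 before and from -0.51 to 2.05 after induction, with medians of -0.38 and 0.19.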

How the data were processed

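RNA of 8 libraries of mouse bone marrow MSCs was measured. Per the study's methods ribosomal RNA was removed and strand-specific single-end reads were aligned with TopHat2 to mm10, using annotation from iGenomes, and the submitters' processing notes name TopHat2 2.1.0, Cufflinks 2.2.1 and Cuffdiff. The authors deposited one RPKM value for each gene in every single library. The library scaling of Cuffdiff is not given in the sources used here. Groups were taken from the sample labels.

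Genes whose mean reached 0.1 RPKM were fitted as log2(RPKM + 0.1) in limma (version 3.58.1, R 4.3.3), with a mean per group over all 8 libraries and a variance trend (4 residual and 1.98 prior degrees of freedom). The pseudocount understates changes of low genes. P-values were adjusted over all tested genes with the Benjamini-Hochberg method, and DEGs also had an absolute log2 difference above 1. The script was tested on simulated data. Other code ran in Python 3.11.15 with pandas 2.3.3 and matplotlib 3.10.9.

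Depth was estimated from the steps between low values in 2477 single-transcript genes, with 200 nt subtracted from the length. Of 3243 low values 67.8% came out within 0.05 of whole reads, too few for a count test. By chance 10% would at a depth set in advance, but depth and offset were fitted to these same values. Estimated reads and the 3-read floor cover counting error only. Positions are from GENCODE, promoters from RefSeq.

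The members and gene lists were chosen with earlier results of these data known, and the lists describe single genes without a test of the list. Named were all members, 8 other SLRP genes, and, of each other pathway list, at most the 4 genes with the largest change in a comparison that passed, with groups that did not overlap and none listed at 0. For each member the gene with the most similar profile was also named. *Dnmt3l*, *Cenpp*, *Col1a2*, *Tgfb2* and single markers were named outside this rule, after their values were seen. Alternatives were other pseudocounts and expression minimums, median centring, quantile normalization, no variance trend, a replicate block, a fit of the libraries compared, no fold limit and each library left out.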

Additional observations from a re-analysis of the deposited data

Results flagged for a closer look

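For 6 of the 9 tested members the difference between KO and WT MSCs was not the same before and after osteogenic induction, by the interaction term of the limma fit. A pass was common, as 19.4% of all tested genes passed with a positive and 20.0% with a negative interaction. In log2 units the difference in differentiating minus that in undifferentiated MSCs was 1.31 for *Ogn*, 1.17 for *Omd*, 1.13 for *Aspn*, 1.07 for *Dcn*, 0.85 for *Podn* and -0.83 for *Prelp*. *Ogn* went from lower to higher in KO MSCs, and both differences passed the test. *Aspn* was further below WT before induction than after it, and *Dcn* was further above WT after induction. *Omd* passed before induction with a lower level in KO MSCs (-0.98), and its difference of 0.19 after induction did not pass. *Prelp* passed before induction with a higher level in KO MSCs, and its difference of -0.21 after induction did not pass. *Podn* passed in neither state alone. In these genes every differentiating library lay above every undifferentiated library of its genotype. Groups of 2 are too small for a search for outlying libraries.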

How the results depend on the processing

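The 9 tested members in 5 comparisons were recomputed under 17 settings, of which 710 values stayed on the same side of the threshold, 29 lost and 9 gained a pass, and 8 changed sign. The members that were DEGs between genotypes in undifferentiated MSCs numbered 2, or 1 with a pseudocount of 1 and 7 with no fold limit. In differentiating MSCs they numbered 2, or 6 with no fold limit, with a range of 1 to 2 when a library was left out. On induction in WT MSCs they numbered 4, or 7 with no fold limit. The 7 DEGs on induction in KO MSCs and the 4 of the interaction stayed within 1.5 times of these counts.

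The sign changes were all in differences that did not pass, except that of *Fmod* on induction in KO MSCs (-0.10, or 0.049 with quantile normalization). *Bgn* on induction was at -0.02 in WT with median centring and, in KO MSCs, at 0.09 with quantile normalization and between -0.068 and 0.019 with a library left out. The interaction of *Lum* was 0.255 with a pseudocount of 1, 0.012 with quantile normalization, and between -0.332 and 0.107 with a library left out. The cause was not tested. Median centring moved the median of all genes by -0.101 on induction in WT MSCs.

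No pairing of the libraries by replicate number was seen (correlation of deviations from -0.0924 to 0.0304). Low genes weigh as much as others in this correlation, so it cannot tell whether libraries of the same number shared a cell mix. The replicate block changed 2 calls, *Bgn* between differentiating genotypes (-0.171, adjusted p = 0.089) and *Fmod* on induction in KO MSCs (-0.098, adjusted p = 0.057). With a library left out, its group had 1 library, assumed to vary like the other groups. Depth limits *Kera* and *Chad* most.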

Other observations

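For each member whose mean exceeded 1 RPKM, the gene with the most similar profile was looked up among 12260 genes, by Pearson r of log2(RPKM + 0.1) over the 8 libraries. The libraries form 4 groups and genes were picked for the highest r, so these values describe likeness and carry no test. *Steap3*, a metalloreductase gene, was most like *Dcn* (r = 0.9993), with group means of 2.00 and 11.5 RPKM in undifferentiated and differentiating WT and 2.84 and 25.4 RPKM in KO MSCs. *Itih2*, whose protein stabilizes hyaluronan matrix, was most like *Lum* (r = 0.9991), and *Ndrg1*, a stress response gene, most like *Ogn* (r = 0.9994). *Ndrg1* had 5.78 and 15.3 RPKM in WT and 2.70 and 38.2 RPKM in KO MSCs, with the same crossing of genotypes as *Ogn*.

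*Alpl*, which encodes the alkaline phosphatase of mineralizing cells, was most like *Fmod* (r = 0.9909), at 44.4 and 36.0 RPKM in WT and 22.6 and 20.0 RPKM in KO MSCs. *Fn1*, which encodes fibronectin, was most like *Bgn* (r = 0.9672, the lowest of these values). The others were *2810433D01Rik* for *Omd* (0.9961), *Sh3pxd2a* for *Prelp* (0.9978), *Ubtd2* for *Aspn* (0.9983) and *Meis2* for *Podn* (0.9944).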
